A study of Mus musculus with 11 samples.

Results

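Cardiac macrophages were followed through 10 genes that mark them, read in the hearts of mice with and without the deletion that models Williams–Beuren syndrome. The genes were Csf1r, Adgre1, C1qa, C1qb, C1qc, Mrc1, Cd163, Lyve1, Folr2 and Timd4. They were chosen by name with earlier results of these data known, so counts of calls among them describe a picked set. Each was found in the count table by its Ensembl identifier, so that all 10 were measured among its 22608 genes. All 10 also passed the filter that left 11319 genes to test, which asked for an average of at least 1 over all mice in log2 CPM, the count scaled to library size. Of the 10, Lyve1, Folr2 and Timd4 stood for macrophages that live in the tissue, and Csf1r, Adgre1 and the 3 C1q genes for macrophages in general, with Mrc1 and Cd163 apart.

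The animals were male mice aged 8 to 16 weeks on a C57BL/6J background. CD mice carry the complete deletion of the Williams–Beuren interval in the heterozygous state, and WT mice were their littermates. JZL184, which blocks monoacylglycerol lipase, the enzyme that breaks down the endocannabinoid 2-AG, was injected at 8 mg/kg for 10 days, and the control mice received the vehicle. The labels call the controls untreated in 1 field and vehicle in another. There were 2 WT and 3 CD mice on vehicle (WT VEH, CD VEH) and 3 of each genotype on JZL184 (WT JZL184, CD JZL184). Each gave 1 heart library, and mice are named here by the letters of the table's columns. The comparisons ask how the deletion changes the heart's RNA, and what JZL184 does in each genotype.

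Macrophages are settled in the healthy heart between the muscle cells, where they engulf dying cells and debris. Most depend on CSF1R, the receptor for the growth factors CSF1 and IL-34. Those that are replenished within the tissue, rather than from blood monocytes, are commonly recognised by LYVE1, FOLR2 and TIMD4. In whole heart tissue they are a minority of the cells, so fewer macrophages and less RNA per macrophage cannot be told apart in these data.

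Libraries held between 69660329 and 92251550 estimated counts, at which 3 counts were worth between 0.0306 and 0.0435 CPM. The genotype labels held in every mouse: 9 of 9 genes checked inside the deleted interval had no CD mouse that reached the lowest WT mouse, at 0.475 to 0.651 of the WT mean. Of 4 atrial genes, Sln, Myl7 and Bmp10 stayed at or below 0.521 CPM in all mice, whereas Nppa, which ventricles under load also express, had group means of 95.8 to 180 CPM. Mouse A of the CD VEH group stood apart, with 18832 CPM summed over 5 haemoglobin and erythroid genes against 1419 to 5512 CPM in the other 10 mice. Mitochondrially encoded transcripts made up 36.4% to 41.2% of all counts in the WT VEH and CD JZL184 mice and 43.5% to 46.6% in the CD VEH and WT JZL184 mice.

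Csf1r encodes the receptor on which most macrophages depend for survival, and it lies on chromosome 18. Csf1r was read at 32.6 and 33.6 CPM in WT VEH hearts and at 42.9, 41.8 and 48.5 CPM in CD VEH hearts. With JZL184 it stood at 38.6, 61.7 and 54.8 CPM in the WT mice and at 31.7, 33.5 and 34.1 CPM in the CD mice. All CD VEH and WT JZL184 mice were above both WT VEH mice, whereas the CD JZL184 mice lay on either side of them.

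Adgre1, which encodes the F4/80 surface protein used to identify mouse macrophages, lies at chr17:57358691-57483527 (GRCm38). It gave 11.8 and 12.2 CPM in WT VEH hearts and 15.4, 14.6 and 18.4 CPM in CD VEH hearts. In treated WT hearts it was at 16.4, 23.5 and 20.6 CPM, and in treated CD hearts at 10.8, 12.7 and 12.3 CPM. As for Csf1r, the treated WT mice had the highest mean but overlapped the CD VEH mice, mouse A being the lowest of them, and the treated CD mice lay around the WT VEH level.

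C1qa, C1qb and C1qc encode the chains of C1q, which starts the classical complement cascade and coats dying cells for uptake. In tissues it is made largely by macrophages. The 3 genes lie side by side on the minus strand of chromosome 4, within 18675 bp, in the order C1qb (chr4:136880129-136886187), C1qc (chr4:136889804-136893065) and C1qa (chr4:136895917-136898803). C1qa was at 26.2 and 29.0 CPM with vehicle in WT, at 44.7, 38.9 and 50.7 CPM with vehicle in CD, at 35.3, 61.8 and 47.8 CPM with JZL184 in WT and at 23.2, 27.9 and 24.0 CPM with JZL184 in CD. The CD VEH and WT JZL184 ranges did not reach down to the WT VEH mice. C1qb gave 30.5 and 32.5 CPM in WT VEH, 48.3, 44.9 and 59.0 CPM in CD VEH, 40.2, 71.4 and 56.0 CPM in WT JZL184 and 26.1, 33.7 and 26.9 CPM in CD JZL184. C1qc gave 27.9 and 31.2 CPM, 50.5, 43.9 and 58.9 CPM, 40.7, 72.8 and 56.7 CPM, and 25.9, 31.9 and 28.1 CPM in the same order of groups. Mouse B was the highest WT JZL184 mouse for all 3 chains and mouse A the lowest.

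Mrc1 and Cd163 are scavenger receptors, the mannose receptor CD206 and the receptor for haptoglobin-bound haemoglobin. Mrc1 (chr2:14229392-14332057) was at 24.9 and 22.2 CPM in WT VEH, 30.9, 27.1 and 31.8 CPM in CD VEH, 26.9, 38.2 and 36.0 CPM in WT JZL184 and 22.1, 23.3 and 25.5 CPM in CD JZL184. Cd163 (chr6:124304656-124330527) was at 18.3 and 17.5 CPM, 22.8, 22.2 and 23.1 CPM, 21.4, 26.8 and 30.2 CPM, and 18.7, 14.4 and 18.4 CPM in those groups. Both genes spread less between groups than the C1q genes did. For Mrc1 the lowest treated WT mouse was just above the higher WT VEH mouse.

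Lyve1, a hyaluronan receptor that lymphatic endothelium also carries, lies on the minus strand at chr7:110850607-110863239. It stood at 15.87 and 15.95 CPM in WT VEH hearts and at 22.2, 18.1 and 21.9 CPM in CD VEH hearts. In WT JZL184 hearts it ran from 15.0 CPM in mouse A to 29.6 CPM in mouse B, with 20.0 CPM in mouse D. It was at 9.67, 11.9 and 9.83 CPM in the CD JZL184 hearts, below every other mouse. The treated WT mice overlapped the WT VEH mice.

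Folr2, a folate receptor, and Timd4, a receptor for phosphatidylserine on dying cells, completed the tissue-resident trio. Folr2 (minus strand, chr7:101839988-101857194) gave 9.65 and 10.7 CPM in WT VEH, 14.4, 12.5 and 13.2 CPM in CD VEH, 11.04, 20.5 and 19.1 CPM in WT JZL184 and 6.79, 8.76 and 7.93 CPM in CD JZL184. As for Lyve1, all 3 treated CD hearts were below both WT VEH hearts. Timd4 (chr11:46810800-46844332) was the scarcest, with 1.43 and 1.28 CPM, 3.12, 1.68 and 2.65 CPM, 1.69, 3.26 and 3.20 CPM, and 1.26, 1.67 and 1.17 CPM in the same groups. Its counts ran from 99 to 277 per library, so each mouse's value rests on fewer reads than that of the other genes. Timd4 also lay near the filter's minimum, and it was left to test in only 15 of 19 alternative fits of CD VEH against WT VEH.

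**Figure D1:**
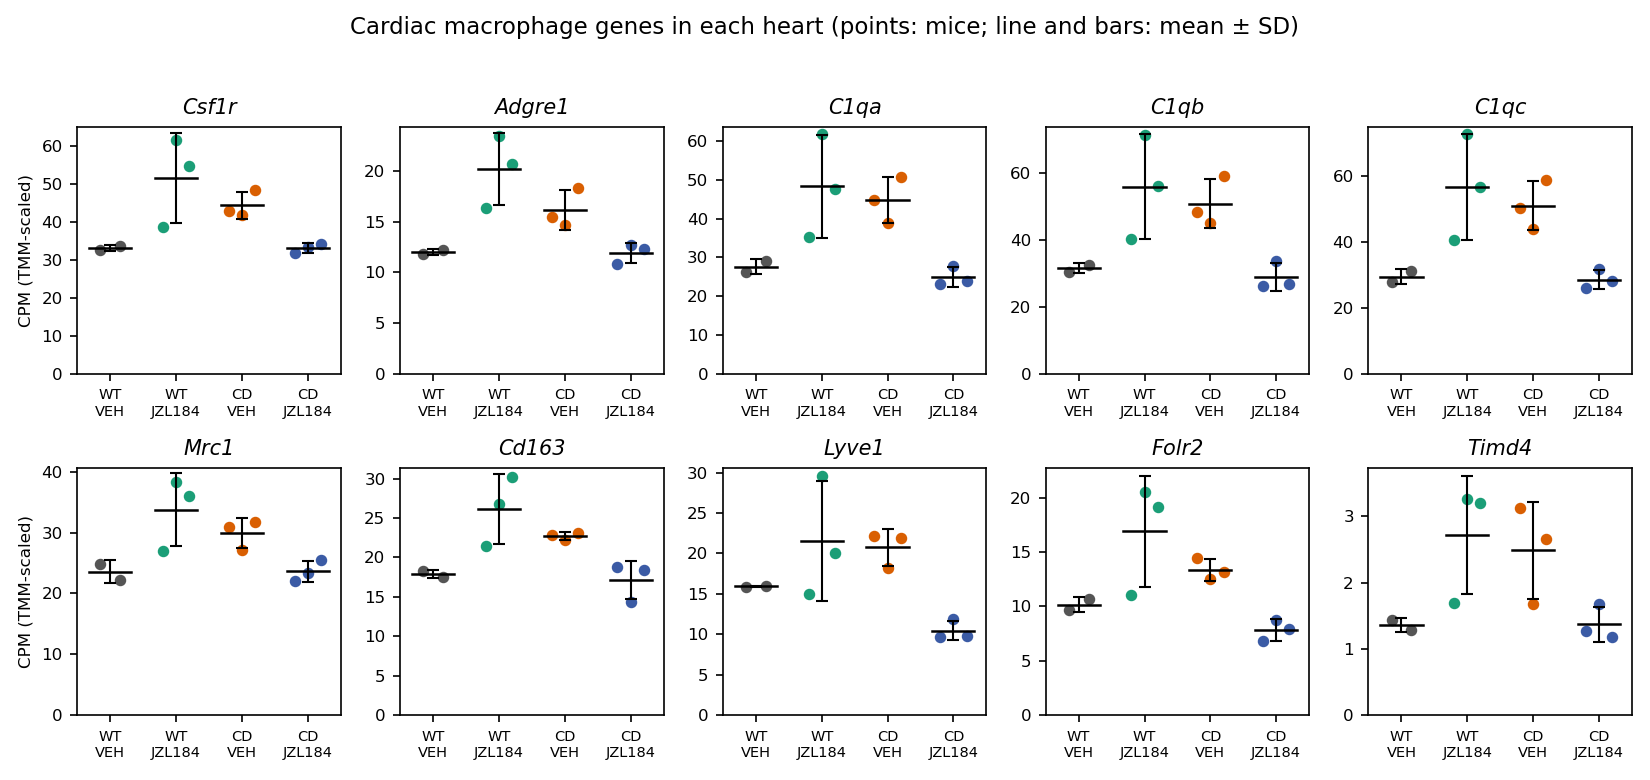
Each panel plots the level of 1 gene (CPM after TMM scaling, axis from 0) in the 11 hearts by group, with points for mice and a line and bars for the mean ± SD. WT JZL184 and CD VEH mice sit above the WT VEH mice in all panels except for WT JZL184 mouse A in Lyve1. Of all tested genes, 32.5% (CD VEH) and 27.4% (WT JZL184) showed this separation as well. The CD JZL184 mice of Lyve1 and Folr2 sit below all WT VEH mice, as for 18.9% of all tested genes.

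Set on a scale per length (CPM per kb of summed exons, means ± SD over the 2 WT VEH hearts), the levels of the 10 genes spanned a wide range. C1qb (28.9 ± 1.31) and C1qa (26.5 ± 1.86) were the most abundant and did not differ beyond their spread, followed by C1qc at 15.3 ± 1.24. Folr2 (6.57 ± 0.466), Csf1r (5.73 ± 0.133) and Lyve1 (5.45 ± 0.0193) came next. Adgre1 (3.71 ± 0.105), Mrc1 (3.69 ± 0.293) and Cd163 (3.28 ± 0.0984) were lower, the first pair with nearly equal means. Timd4 closed the order at 0.624 ± 0.0505. In the general macrophage list, Trem2 and Aif1 did not pass the filter, with group means of 1.34 to 2.30 CPM, and the other 13 of 15 genes were tested.

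To show the sequence from which some of these genes are read, the promoter stretches of 4 of them are given from RefSeq (GRCm38.p6), written 5′ to 3′ on the strand of the gene and only as far as the first annotated exon. The table of promoters used here held 6 of the 10 genes. Capitals mark GGAAGT on either strand (its reverse complement reads ACTTCC), a core bound by ETS factors such as PU.1, the Spi1 product that macrophages need. The motif was picked after the sequences had been seen. C1qb and C1qc are shown for the C1q cluster, and Folr2 and Timd4 for the resident genes. They span chr4:136886201-136886450, chr4:136893066-136893164, chr7:101857195-101857440 and chr11:46810549-46810798.
C1qb: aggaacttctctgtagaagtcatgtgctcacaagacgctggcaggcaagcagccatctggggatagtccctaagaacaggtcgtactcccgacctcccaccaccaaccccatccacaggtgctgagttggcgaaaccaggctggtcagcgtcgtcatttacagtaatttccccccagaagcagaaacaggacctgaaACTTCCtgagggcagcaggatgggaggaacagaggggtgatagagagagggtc
C1qc: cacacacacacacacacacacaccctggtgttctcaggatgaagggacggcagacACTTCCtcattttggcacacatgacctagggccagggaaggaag
Folr2: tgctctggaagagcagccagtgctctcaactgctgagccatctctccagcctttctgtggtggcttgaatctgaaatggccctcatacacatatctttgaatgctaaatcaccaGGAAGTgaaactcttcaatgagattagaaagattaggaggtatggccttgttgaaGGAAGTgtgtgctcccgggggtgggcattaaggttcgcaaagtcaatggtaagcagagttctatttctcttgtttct
Timd4: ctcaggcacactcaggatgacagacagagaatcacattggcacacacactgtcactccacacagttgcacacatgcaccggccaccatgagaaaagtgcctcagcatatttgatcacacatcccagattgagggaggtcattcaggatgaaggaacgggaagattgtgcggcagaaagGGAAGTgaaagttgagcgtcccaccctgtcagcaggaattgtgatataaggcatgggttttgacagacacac
Counted in the whole windows, before any cut at an exon, the letters GGAAGT stood in 5 of the 7 windows of these 6 genes. They stood in 19.7% of 32851 promoter windows of 250 bases. The longer form GAGGAAGT stood in 1 of the 7 windows, that of C1qc, and in 2.44% of all windows. A match of letters is a description of the window and does not show a bound site.

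The deletion was compared first in vehicle-treated mice. In CD VEH against WT VEH hearts the general macrophage genes rose: C1qc by 72.9%, C1qa by 62.3%, C1qb by 61.1%, Adgre1 by 34.5% and Csf1r by 34.2%. On the log2 scale C1qc changed by 0.79 ± 0.20 (SE, 95% interval 0.36 to 1.23, adjusted p = 0.014), C1qa by 0.70 ± 0.19 (adjusted p = 0.0185) and C1qb by 0.69 ± 0.20 (adjusted p = 0.025), by the quasi-likelihood test of edgeR, adjusted over all tested genes after Benjamini and Hochberg. Adgre1 changed by 0.43 ± 0.14 (adjusted p = 0.0387) and Csf1r by 0.42 ± 0.15 (adjusted p = 0.0499), the latter at the edge of the threshold of 0.05. The other 5 genes did not pass: the log2 differences were 0.35 for Mrc1 (adjusted p = 0.0662), 0.34 for Cd163 (0.0742), 0.38 for Lyve1 (0.188), 0.39 for Folr2 (0.163) and 0.88 for Timd4 (0.0535). So 5 of 10 genes were called higher and 0 lower, with a median log2 difference of 0.43, where 15.0% of all 11319 tested genes were called higher and 15.4% lower and their median was 0.01. All 3 CD VEH mice were above both WT VEH mice for 10 of the 10 genes, and of all tested genes 32.5% were separated in this way and 31.5% in the opposite way.

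The count of calls changed when single mice were left out. It fell to 0 when either WT VEH mouse was left out, to 1 without CD VEH mouse E, to 2 without CD VEH mouse A (the haemoglobin-rich heart), and to 3 without WT JZL184 mouse D or CD JZL184 mouse E, and it was 9 without WT JZL184 mouse A. The median log2 difference of the genes left to test moved less, to 0.42 and 0.46 without WT VEH mouse C or D, 0.35 without CD VEH mouse E and 0.45 without CD VEH mouse A, against 0.43 with all mice. With an offset for gene length 3 were called, Csf1r, C1qc and Mrc1, and C1qa (0.44), C1qb (0.43) and Adgre1 (0.35, edgeR adjusted p = 0.0683) were not. The count was 10 when the fit held no JZL184 mice. Under upper quartile scaling, 7 of the 10 were called, and the split over all genes moved from 1694 higher and 1746 lower to 2154 higher and 1347 lower.

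JZL184 lowered the whole set in the CD hearts. In CD JZL184 against CD VEH hearts all 10 genes fell, beside 17.0% of all tested genes called lower and 16.8% called higher, with a median log2 change of -0.79 against 0.00 over all tested genes. Lyve1 fell by 49.6% (log2 change -0.99 ± 0.19, 95% interval -1.41 to -0.57, edgeR adjusted p = 0.00433), Timd4 by 44.7%, C1qa by 44.2%, C1qc by 43.9%, C1qb by 43.0% and Folr2 by 41.4%. Adgre1 fell by 26.2%, Csf1r by 25.5%, Cd163 by 24.4% and Mrc1 by 21.1% (log2 change -0.34 ± 0.12, edgeR adjusted p = 0.0425). No CD JZL184 mouse reached the lowest CD VEH mouse in any of the 10, which held for 27.3% of all tested genes, with 27.2% separated in the opposite direction. The count of genes called was 6 without CD VEH mouse A, 5 without CD VEH mouse E and 6 without CD JZL184 mouse A, where the medians were -0.71, -0.68 and -0.71. Under upper quartile scaling all 10 were called, and the split over all genes went from 1905 higher and 1926 lower to 1590 and 2212. Lyve1 stayed past the threshold in all 19 alternative fits, with adjusted p between 3.97e-06 and 0.0226.

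In WT hearts the same drug went with higher values. In WT JZL184 against WT VEH hearts 9 of the 10 genes were called higher, beside 15.4% of all tested genes called higher and 14.0% called lower. Timd4 rose by 1.01 ± 0.32 on the log2 scale (edgeR adjusted p = 0.0331), C1qc by 0.94 ± 0.20 (0.00753), C1qb by 0.83 ± 0.20 (0.0125) and C1qa by 0.81 ± 0.19 (0.0107). Adgre1 rose by 0.75 ± 0.14 (edgeR adjusted p = 0.00482), Folr2 by 0.73 ± 0.21 (0.0231), Csf1r by 0.64 ± 0.15 (0.0106), Cd163 by 0.55 ± 0.14 (0.0136) and Mrc1 by 0.52 ± 0.13 (0.0154). Lyve1 did not pass, with a log2 difference of 0.43 ± 0.21 and an edgeR adjusted p of 0.143. For 9 of the 10 genes every treated WT mouse was above both WT VEH mice, as for 27.4% of all tested genes, with 27.3% the other way round. Mice A, B and D of this group differed widely, and mouse A was the lowest for all 10 genes. The count of called genes fell to 0 without WT VEH mouse C and to 2 without WT VEH mouse D, while the median log2 difference was 0.69 and 0.79 there against 0.74 with all mice. With upper quartile scaling 9 of 10 were called, and the split over all genes went from 1748 higher and 1584 lower to 2076 and 1168.

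The effect of JZL184 differed between the genotypes for every gene of the set. The difference of the effects (CD minus WT, the interaction term of the same model) was negative for all 10 genes, from -0.86 ± 0.18 for Mrc1 (edgeR adjusted p = 0.00215) to -1.86 ± 0.42 for Timd4 (0.00333). It was -1.78 ± 0.27 for C1qc (edgeR adjusted p = 0.000371), -1.42 ± 0.29 for Lyve1 (0.00196) and -1.07 ± 0.20 for Csf1r (0.00124). Over all tested genes 26.2% were called lower and 25.3% higher in this contrast, and the median of the 10 genes was -1.46 against -0.01 over all genes. Leaving out any mouse kept 9 or 10 of them past the threshold.

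Among treated mice, the CD hearts were lower than the WT hearts for all 10 genes. Folr2 fell by 53.6% (log2 difference -1.11 ± 0.18, edgeR adjusted p = 0.00157), Lyve1 by 51.3% and Mrc1, the least changed, by 29.9%. Over all tested genes 20.1% were called lower and 18.2% higher. Every treated CD mouse was below every treated WT mouse in 10 of the 10, a separation found for 24.3% of all tested genes, with 23.6% in the reverse direction. These comparisons share mice with one another, so their agreement in sign is not counted as separate evidence.

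The treated CD hearts were then set against the WT VEH hearts. None of the 10 genes was called in edgeR, 1 of them (Lyve1) had an unadjusted p under 0.05, and over all tested genes edgeR called 0.0442% higher and 0.141% lower. DESeq2 also called 0 of the 10, beside 0.442% of all genes called higher and 0.486% lower. Csf1r differed by 0.00 on the log2 scale (95% interval -0.32 to 0.32), Mrc1 by 0.01 (-0.28 to 0.30) and C1qc by -0.04 (-0.47 to 0.38). Lyve1 gave the widest gap, -0.60 ± 0.21 (95% interval -1.07 to -0.14, edgeR adjusted p = 0.407), and Folr2 gave -0.38 ± 0.21 (-0.83 to 0.08, edgeR adjusted p = 0.599). For these 2 genes every CD JZL184 mouse was lower than every WT VEH mouse, which held for 18.9% of all tested genes, while 17.7% were separated upwards. With only these 2 groups in the model 1 gene, Lyve1, was called lower, and Timd4 did not pass the filter there. A missed threshold does not show equal levels, and the intervals bound the difference that these 5 mice leave possible.

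**Figure D2:**
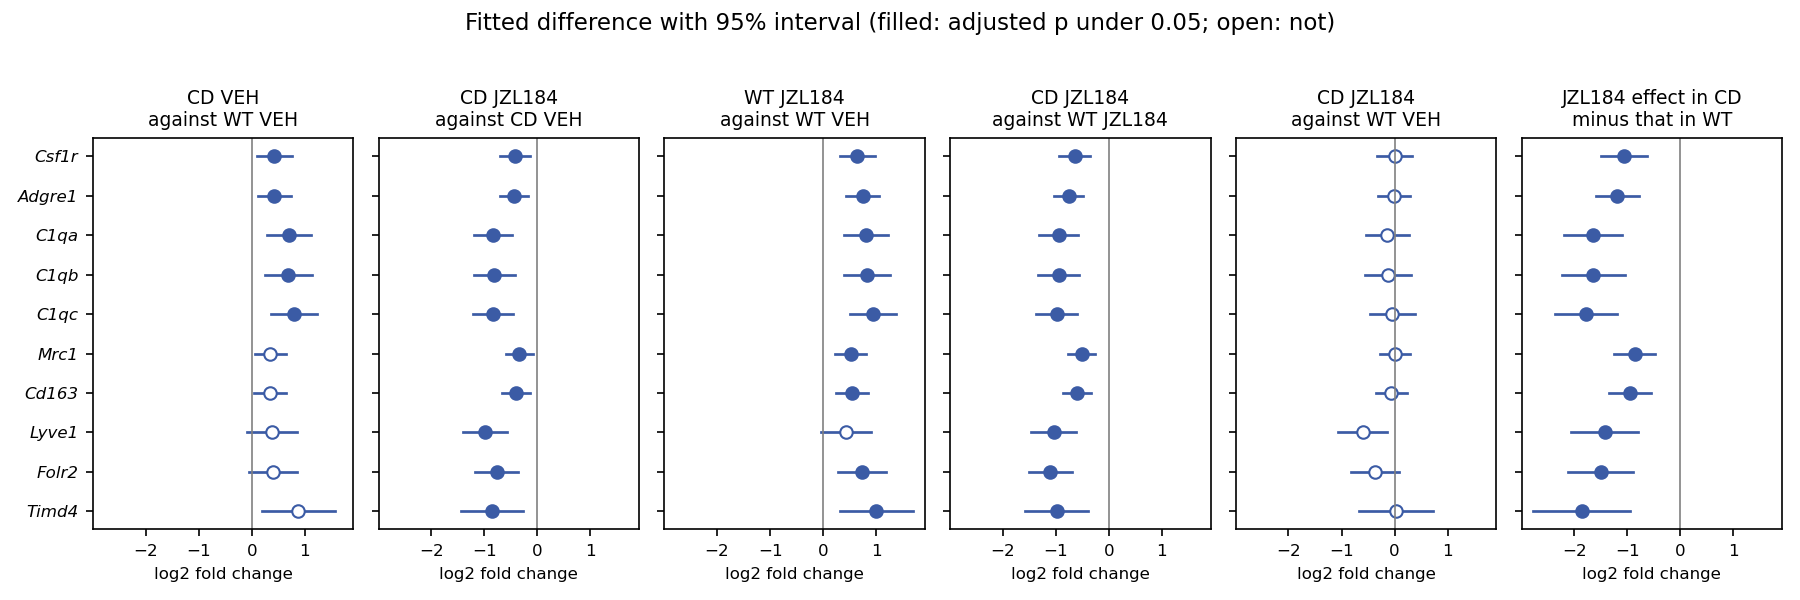
Rows are the 10 genes and panels the comparisons, with the fitted log2 fold change and its 95% interval, filled where the edgeR adjusted p was under 0.05. The set lies to the right of 0 in CD VEH and WT JZL184 hearts against WT VEH, to the left in CD JZL184 hearts against CD VEH or WT JZL184, and around 0 in CD JZL184 against WT VEH except for Lyve1 and Folr2.

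The resident genes were next set against the general ones within each heart. The measure was the mean log2 CPM of Lyve1, Folr2 and Timd4 minus that of Csf1r, Adgre1, C1qa, C1qb and C1qc. It was -2.06 ± 0.07 (SD, n = 2) in WT VEH, -2.15 ± 0.14 (n = 3) in WT JZL184, -2.12 ± 0.20 (n = 3) in CD VEH and -2.32 ± 0.08 (n = 3) in CD JZL184. Single hearts ran from -2.39 in CD JZL184 mouse E to -1.90 in CD VEH mouse A, and the pooled SD within groups was 0.139. The lowest group was CD JZL184, 0.26 under WT VEH with no overlap of their mice, and the gap to CD VEH was 0.19. That gap leaned on CD VEH mouse A, the haemoglobin-rich heart, as mice C and E stood at -2.23 and -2.25. Leaving out 1 mouse at a time moved CD JZL184 minus CD VEH between -0.26 and -0.080. No test is given for a score over chosen genes. The measure depended on which genes stood for macrophages in general. Without the C1q genes, CD JZL184 was 0.43 under CD VEH, and with Mrc1 and Cd163 counted as resident the gap was 0.00.

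The 3 C1q genes were also set against the other general genes within each heart. Their mean log2 CPM minus that of Csf1r and Adgre1 was 0.56 ± 0.06 (SD, n = 2) in WT VEH, 0.71 ± 0.12 (n = 3) in WT JZL184, 0.86 ± 0.07 (n = 3) in CD VEH and 0.46 ± 0.12 (n = 3) in CD JZL184. All 3 CD VEH hearts (0.78 to 0.91) were above both WT VEH hearts (0.52 and 0.60) and above all CD JZL184 hearts (0.36 to 0.59). Mrc1 and Cd163 minus the general genes were at -0.30 ± 0.15, -0.54 ± 0.19, -0.55 ± 0.11 and -0.26 ± 0.23 in the same groups. The general genes subtracted here include the 3 C1q genes. This measure thus falls by construction where the C1q genes rise, and its opposite course is not a separate result. These measures were added after the values had been seen, they carry no test, and they hold no correction for gene length.

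**Figure D3:**
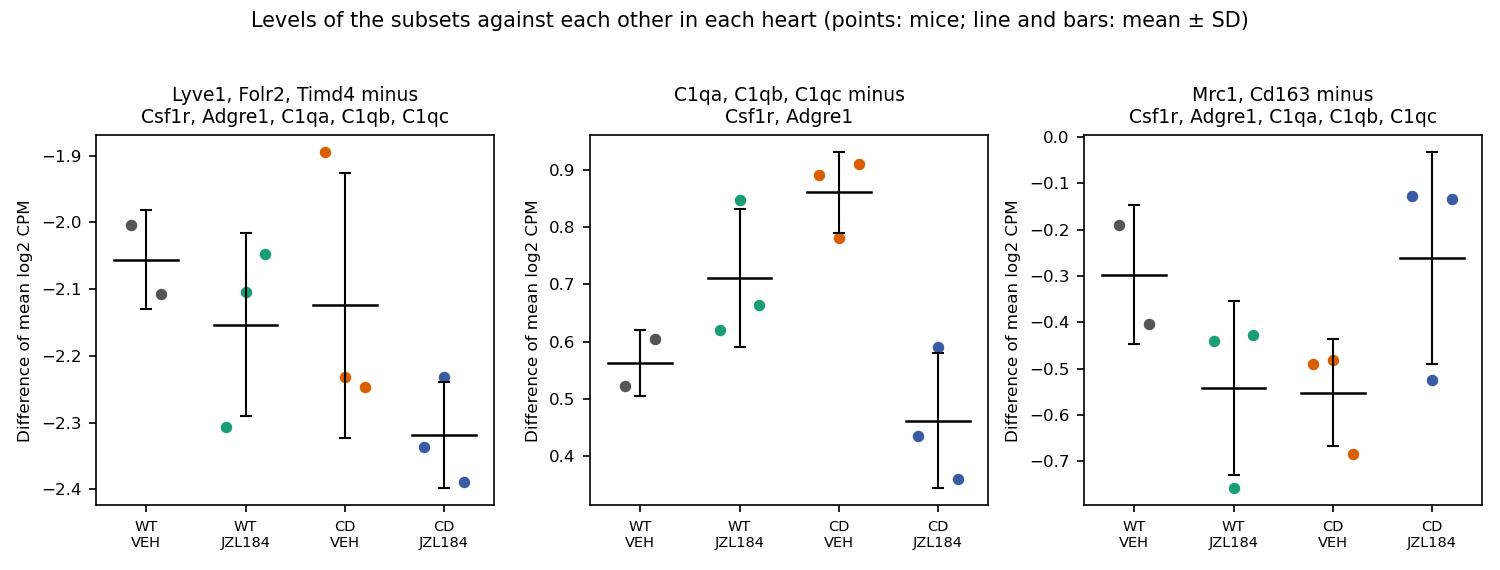
Each panel plots, for the 11 hearts by group, the difference between the mean log2 CPM of the genes named above it, with points for mice and a line and bars for the mean ± SD. CD JZL184 hearts have the lowest mean for the resident genes (-2.32), overlapping the WT JZL184 and CD VEH hearts, and CD VEH hearts the highest mean for the C1q genes (0.86), overlapping WT JZL184 mouse B.

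The length of the transcripts moved with these differences. C1qa and C1qb are short (1040 and 1088 bp of summed exons), whereas Csf1r, Mrc1 and Cd163 have 5461 to 6371 bp. Over all tested genes in CD VEH against WT VEH hearts, the shortest of 4 equal length classes (up to 2980 bp) had a median log2 difference of 0.16, with 28.7% called higher and 4.16% lower. The longest class (from 7142 bp) had a median of -0.14, with 4.88% called higher and 30.8% lower. In CD JZL184 against CD VEH the medians were -0.15 and 0.13, and in WT JZL184 against WT VEH they were 0.11 and -0.13. In CD JZL184 against WT VEH they were -0.0016 and -0.017. The cause of this trend was not tested. The mitochondrial share moved in the same groups, and with the genes of the mitochondrial genome taken out of the library sizes 4, 10 and 9 of the 10 macrophage genes were called in the 3 comparisons.

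With an offset for gene length in the fit, the differences of the short genes became smaller and those of the long genes hardly moved. In CD VEH against WT VEH hearts C1qa went from 0.70 to 0.44 (edgeR adjusted p = 0.0613), C1qb from 0.69 to 0.43 (0.0836) and Folr2 from 0.39 to 0.19 (0.472). Csf1r stood at 0.45 with the offset (edgeR adjusted p = 0.0442), Mrc1 at 0.40 (0.0459) and C1qc at 0.62 (0.0268), and these were the 3 genes called. After the offset C1qa, C1qb and Csf1r thus had nearly the same log2 difference. In CD JZL184 against CD VEH hearts 9 of 10 genes stayed past the threshold, with Lyve1 at -0.90 (edgeR adjusted p = 0.00617), C1qa at -0.56 (0.0148) and Timd4 at -0.71 (0.0592, not called). In WT JZL184 against WT VEH 8 of 10 did, without Lyve1 and Folr2 (0.55, edgeR adjusted p = 0.0517). There C1qa (0.56) and C1qb (0.59) came to lie under Csf1r (0.65) and Adgre1 (0.67), the reverse of their order without the offset, while C1qc (0.79) stayed above them. The interaction stayed past the threshold for all 10 genes, between -0.93 for Mrc1 and -1.58 for Timd4.

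**Figure D4:**
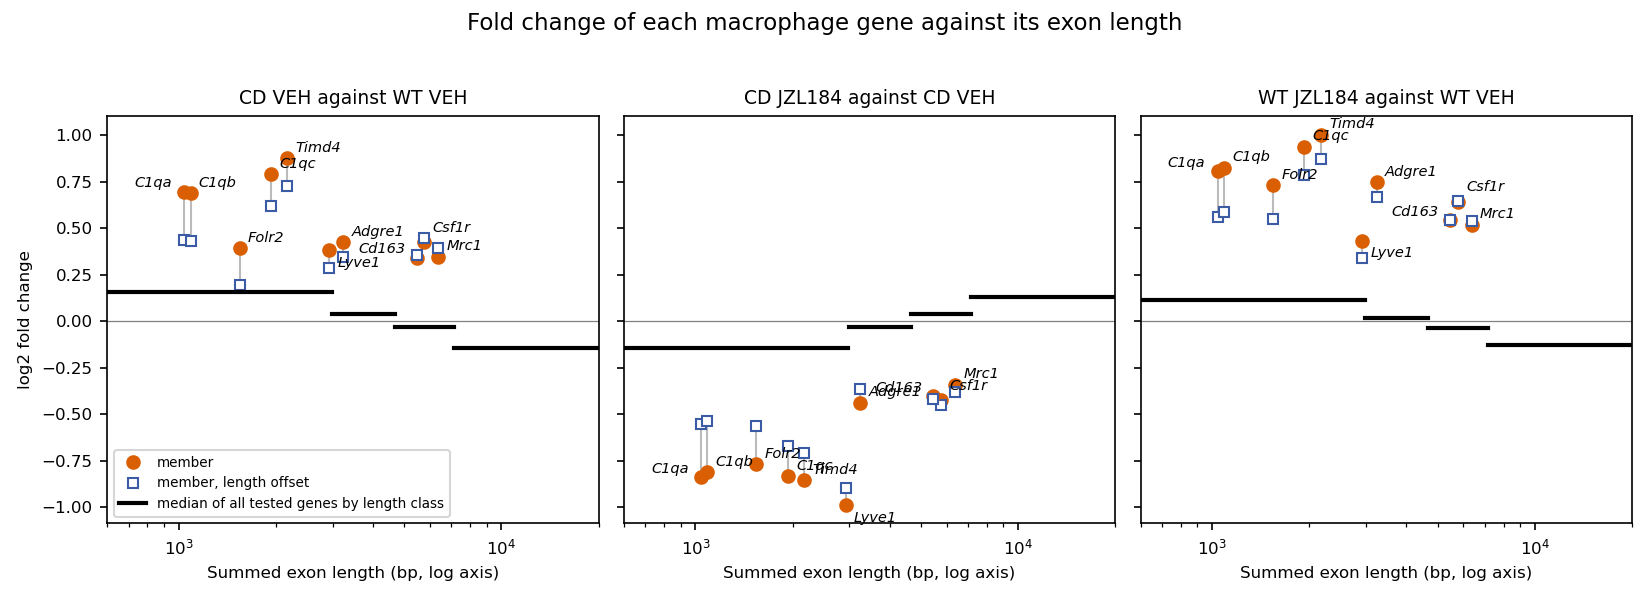
The log2 fold change of each gene (vertical) is plotted against its summed exon length in bp (horizontal, log axis) in 3 comparisons, as filled circles without and open squares with the length offset, beside black bars for the median of all tested genes in each length class. C1qa and C1qb at 1040 and 1088 bp move most between circle and square, while Csf1r, Mrc1 and Cd163, from 5461 bp up, stay within 0.05 of their first value.

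Other macrophage genes were taken from lists drawn up by name, also with earlier results of these data known. The counts in these lists, also where genes are said to rise or fall, are counts of called genes. They stand beside the shares of all tested genes, namely 15.0% higher and 15.4% lower in CD VEH against WT VEH. With JZL184 the shares were 16.8% and 17.0% in CD, and 15.4% and 14.0% in WT. In CD VEH against WT VEH hearts, 6 of 13 tested general macrophage genes were higher and 0 lower (median log2 difference 0.52). They included Fcgr1, an IgG receptor (0.87, edgeR adjusted p = 0.0193), Tyrobp, a signalling adaptor of myeloid receptors (0.75, 0.0193), and Cd14, the endotoxin co-receptor (0.74, 0.0211). JZL184 lowered 6 of the 13 in CD hearts, with Tyrobp at -0.77 (edgeR adjusted p = 0.00836) and Cd14 at -0.83 (0.00684) among them, and raised 10 of the 13 in WT hearts. Fcgr1 in treated against vehicle CD hearts was at -0.46 and did not pass (edgeR adjusted p = 0.0972). Of the resident macrophage list, 3 of 10 tested genes were higher in CD VEH hearts, with Pf4 at 1.08 (edgeR adjusted p = 0.00746), a chemokine that platelets also carry, and Cbr2 at 0.67 (0.0214), a carbonyl reductase. Clec10a, a lectin, was at 0.61 without passing (edgeR adjusted p = 0.122). In CD hearts 6 of these 10 fell with JZL184, and in WT hearts 5 of 10 rose. Cd209f, Cd209g and Cd209b, lectins of tissue macrophages, were at or near 0, with at most 0.197 CPM in any mouse.

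Genes of monocytes and of macrophages recruited from blood were mostly scarce. Of 12 listed genes, 5 were abundant enough to test, and 0 of the 5 were called in CD VEH against WT VEH hearts by edgeR or DESeq2, 1 at an unadjusted p under 0.05 in edgeR. Nr4a1, a factor that patrolling monocytes need and that many stimulated cells induce, differed by 1.01 (edgeR adjusted p = 0.0947), and Ace by -0.12 (0.43). Ccr2, the receptor that brings monocytes into tissue, was at 0.21 there (edgeR adjusted p = 0.479), yet rose by 0.85 in WT hearts with JZL184 (0.0134) and was at -0.26 in CD hearts (0.301). With JZL184 in CD hearts 1 of the 5 was called, Itgam, an integrin chain of myeloid cells, at -0.49 (edgeR adjusted p = 0.0406). Among treated mice 3 of the 5 were lower in CD than in WT hearts, beside 20.1% of all tested genes. They were Ccr2 at -0.91 (edgeR adjusted p = 0.00355), Itgam at -0.70 (0.00754) and Ace at -0.29 (0.0412). Ace was far more abundant, with group means of 39.0 to 47.6 CPM against 2.06 to 3.87 CPM for Ccr2. Which cells its RNA came from was not tested. Chil3, Spp1 and Cd300e stayed at or below 0.241 CPM in every heart. Plac8 was below 0.615 CPM in all. Of neutrophil and lymphocyte genes none of 6 and 7 passed the filter, and their summed levels were at most 12.6 CPM (CD VEH mouse A) and 3.39 CPM.

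Of the ligands and factors on which macrophages depend, 3 of 11 tested genes were higher in CD VEH hearts and 0 lower. Il34, a ligand of CSF1R, rose by 0.69 (edgeR adjusted p = 0.0145), Spi1, which encodes PU.1, by 0.70 (0.0434), and Id3, a helix-loop-helix inhibitor that many cell types express, by 0.89 (0.00182). Csf1, the other ligand, differed by -0.18 (edgeR adjusted p = 0.452), and Csf2 was near 0, with at most 0.0231 CPM. In CD hearts 2 of the 11 were called lower with JZL184, near the share of all tested genes (17.0%). They were Spi1, which fell by 0.76 on the log2 scale (edgeR adjusted p = 0.017) and Id3, by 0.86 (0.00201), whereas Il34 was at -0.37 (0.072). In WT hearts 5 of 11 rose, Spi1 by 0.70 (edgeR adjusted p = 0.0439), Il34 by 0.60 (0.0255) and Irf8 by 0.52 (0.0319) among them.

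C1q acts with the proteases C1r and C1s and is held in check by the C1 inhibitor. Of these partners 4 of 10 tested genes were higher in CD VEH hearts, among them Serping1, the C1 inhibitor (0.52, edgeR adjusted p = 0.00327), Cd55, a regulator that protects host cells (0.51, 0.0408), C1ra (0.40, 0.031) and C1s1 (0.49, 0.0109). The anaphylatoxin receptor gene C5ar1 was at 0.63 without passing (edgeR adjusted p = 0.0843). In CD hearts JZL184 lowered 4 of the 10, including Serping1 at -0.55 (edgeR adjusted p = 0.00201), Cd55 at -0.61 (0.0108) and C5ar1 at -0.66 (0.0413), with C1ra at -0.28 (0.0641) and C1s1 at -0.21 (0.134) not called. With JZL184 in WT hearts, 6 of the 10 were called higher and 0 lower (median log2 difference 0.52). C3, the centre of the cascade, differed by 0.02 in CD VEH hearts and 0.08 with JZL184 in CD hearts (edgeR adjusted p = 0.945 and 0.729).

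Of the genes for the uptake of dying cells, 1 of 13 rose and 2 fell in CD VEH against WT VEH hearts, with a median of 0.02, beside 15.0% and 15.4% of all tested genes. Pros1, a bridging ligand, was at 0.40 (edgeR adjusted p = 0.00899), Itgav, an integrin chain found on many cells, at -0.34 (0.016), and Axl, a receptor for the bridging ligands, at 0.36 (0.0587). Mertk, the receptor most tied to macrophages, differed by 0.02 in CD VEH hearts (edgeR adjusted p = 0.897) and by -0.09 with JZL184 in CD hearts (0.456), though it rose by 0.47 in treated WT hearts (0.00769). With JZL184, 2 of the 13 rose and 2 fell in CD hearts, and 4 rose and 0 fell in WT hearts. Among treated mice 7 of the 13 were lower in CD than in WT hearts and 0 higher, beside 20.1% and 18.2% of all tested genes. The interaction term was negative for 8 of the 13 and positive for 1 among those past the threshold (Mertk at -0.55, edgeR adjusted p = 0.00493), beside 26.2% and 25.3% of all tested genes.

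Markers of other cells moved with the same contrasts. Of endothelial genes 7 of 8 were higher in CD VEH hearts (median 0.46), such as Emcn (0.83, edgeR adjusted p = 0.0027), Egfl7 (0.77, 0.00162) and Cdh5 (0.47, 0.00452). In CD hearts 7 of 8 fell with JZL184, and in WT hearts 8 of 8 rose. Their summed level was 646 to 648 CPM in WT VEH, 979 to 1036 in WT JZL184, 831 to 925 in CD VEH and 631 to 725 in CD JZL184. Fibroblast genes were higher for 4 of 7 in CD VEH (median 0.43), Tcf21, Dpt and Lum included, lower for 4 of 7 with JZL184 in CD and higher for 5 of 7 with JZL184 in WT, with summed levels of 628 to 652, 801 to 1006, 750 to 847 and 580 to 648 CPM in the same groups. Cardiomyocyte genes were mixed. In CD VEH hearts 3 of 8 were lower, namely Ttn (-1.07, edgeR adjusted p = 0.0209), Actn2 (-0.46, 0.0106) and Myh6 (-0.44, 0.0493), whereas Myl2 (0.25, 0.0983) and Tnni3 (0.24, 0.0911) were not called but higher in all CD VEH mice than in both WT VEH mice. With JZL184 in CD hearts 3 of the 8 rose and 1 fell, Myl2 (-0.35, edgeR adjusted p = 0.0165), in the direction of the macrophage genes. In WT hearts 4 of the 8 fell and 0 rose. For comparison the summed level of the 10 macrophage genes was 199 to 206, 247 to 410, 266 to 328 and 176 to 200 CPM. Whether the share of muscle RNA had a part in the macrophage values was not tested. The values of all these lists hold no correction for gene length, and its part in the split of the cardiomyocyte genes was not tested.

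Lyve1 is also a lymphatic gene, so the lymphatic list was read beside it. Of 4 tested genes, Ccl21a (0.73, edgeR adjusted p = 0.0204) and Flt4 (0.23, 0.045) were higher and Prox1 (-0.68, 0.0109) lower in CD VEH hearts, while Reln (-0.24, 0.411) was not called. With JZL184 in CD hearts Prox1 rose by 0.61 (edgeR adjusted p = 0.00933), opposite to Lyve1, and Flt4 (-0.30, 0.00895) and Ccl21a (-0.58, 0.0273) fell, as Lyve1 did. Most called cardiomyocyte genes went in the direction of Prox1. Of 8 tested, 3 were lower and 0 higher in CD VEH hearts, and 3 rose and 1 fell with JZL184 in CD hearts. Which cells the RNA of Prox1 came from was not tested. Summed lymphatic levels overlapped between all groups, from 61.5 to 86.2 CPM, but Prox1, which moved against Ccl21a and Flt4, made up much of that sum (group means of 33.3 CPM in CD VEH to 53.1 CPM in WT VEH). Of the dendritic cell list, Zbtb46, which endothelium also expresses, was at 0.31 (edgeR adjusted p = 0.00706) and Clec9a at 0.13 (0.552), and the other 4 of 6 did not pass the filter. Haemoglobin genes (Hbb-bt, Hbb-bs and Hba-a2, at 1.77 to 1.97 in CD VEH hearts) were not called in that comparison, with CD VEH mouse A far above the other mice. With JZL184 in CD hearts all 5 haemoglobin and erythroid genes were called lower, as the macrophage genes were, at log2 changes of -2.05 to -2.28 (edgeR adjusted p 0.0276 to 0.0348). Their summed level was 2032 to 18832 CPM in CD VEH and 1419 to 2195 CPM in CD JZL184 hearts, which overlapped. None of the 5 was called without CD VEH mouse A, where the median was -0.43, or without CD JZL184 mouse A or E, and 1 was called without CD JZL184 mouse C. Without CD VEH mouse A, 6 of the 9 macrophage genes left to test were called lower. Nppa, the only atrial gene tested, was at -0.91 (edgeR adjusted p = 0.0838).

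**Figure D5:**
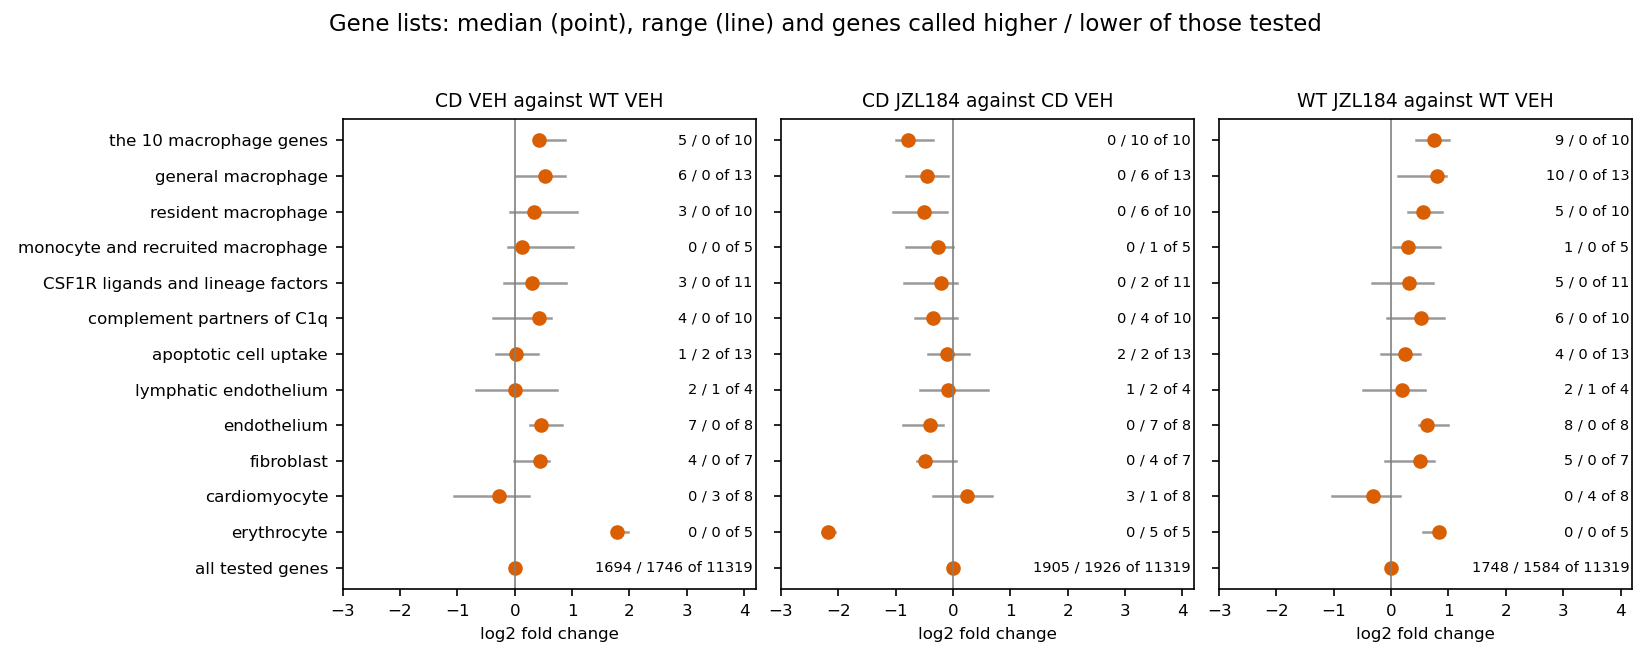
For each gene list with at least 4 tested genes, a point marks the median log2 fold change, a line the range over its genes and the numbers how many were called higher / lower of those tested, in 3 comparisons. The 10 macrophage genes stand at 0.43, -0.79 and 0.74, the medians of endothelium and fibroblast on the same side and the cardiomyocyte median (-0.27, 0.25 and -0.32) on the other, with the range of that list on both sides of 0.

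Within the set, the genes rose and fell together from heart to heart. Over the 11 mice, the Pearson r of each gene with the mean z-score of the other 9 ran from 0.85 for Cd163 and 0.90 for Lyve1 to 0.98 for C1qa and C1qc, as a description over hearts that share group, depth and composition. The genes outside the set most like its mean were Cbr2 (r = 0.990), Lyz2 (0.986), Cd68 (0.985), Fcgr2b (0.983), Ly86 (0.982), Fcgr3 (0.980), Ctsz (0.980), Fcrls (0.979), Rnase4 (0.979) and Timm10b (0.979). Lyz2, lysozyme of myeloid cells, had group means of 134 and 193 CPM in vehicle-treated WT and CD hearts, and of 247 and 119 CPM in treated WT and CD hearts. Cd68, a lysosomal glycoprotein of macrophages, stood at 4.25 and 6.56 CPM, and at 7.68 and 4.08 CPM, in those groups. Timm10b, a mitochondrial import gene, is not known as a myeloid gene, and its means were 13.9 and 16.6 CPM, and 17.1 and 13.8 CPM.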

How the data were processed

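Heart RNA of 11 mice was sequenced. The authors deposited a table of estimated counts per gene for all libraries, made with Salmon (0.7.2) and summed per gene, with no normalization. Its columns name a group and a letter, and 0 columns lacked a group. Of 22608 identifiers, 22238 matched GENCODE M21 of GRCm38, which gave symbols, positions and summed exon lengths. Estimated counts were rounded to whole numbers. Genes averaging at least 1 in log2 CPM were kept, libraries were TMM-scaled, and all 4 groups entered 1 model in edgeR (4.0.16), checked on simulated data, with Benjamini-Hochberg adjustment over 11319 genes and a threshold of 0.05. The biological coefficient of variation was 9.13%. The p-values measure the spread between mice, which the series calls biological replicates. Log2 CPM used a prior count of 2. DESeq2 (1.42.0), other scalings and filters, a length offset (loess, span 0.5) and leaving out each mouse were alternatives. Pairs of libraries within a group differed by 22.6 to 125 in chi-square per gene, so none was counted as a repeat. Members and lists were chosen with earlier results of these data known. Named genes were all 10 members, the 3 tested genes of each list with the largest difference in CD VEH against WT VEH, list genes near 0, and the 10 genes most like the members' mean. Trem2, Aif1, Csf1, Itgam, Irf8, Mertk, C1ra, C1s1, C3, Flt4, Myl2 and Tnni3 were named after their values were seen.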

Additional observations from a re-analysis of the deposited data

Results flagged for a closer look

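The effect of JZL184 differed between CD and WT hearts beyond the spread between mice for all 10 macrophage genes, by the interaction term of the edgeR model, and this is what set them apart for a closer look. The difference (effect in CD minus effect in WT, on the log2 scale) was -1.07 for Csf1r, -1.19 for Adgre1, -1.65 for C1qa, -1.64 for C1qb, -1.78 for C1qc, -0.86 for Mrc1, -0.95 for Cd163, -1.42 for Lyve1, -1.50 for Folr2 and -1.86 for Timd4. In the WT hearts 9 of the 10 genes were called higher with JZL184, and Lyve1 was at 0.43 without passing (edgeR adjusted p = 0.143). In the CD hearts all 10 were called lower. In the same contrast 26.2% of all tested genes were called lower and 25.3% higher.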

How the results depend on the processing

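No paired analysis was possible because the columns of the table carry letters, which no label ties to the replicate numbers, a litter or a batch, and a fit with the letter as a block was not run. Over the single genes, 996 of 1104 combinations of gene, comparison and alternative kept their direction and their side of the threshold, 72 lost the call, 22 gained it and 14 reversed. All 14 were in CD JZL184 against WT VEH hearts, in 6 genes that edgeR did not call. There Csf1r was -0.0024 without mitochondrial genes and Adgre1 0.0040 under upper quartile scaling, and leaving out 1 mouse at a time moved Csf1r between -0.023 and 0.030, Adgre1 between -0.058 and 0.055, C1qc between -0.13 and 0.040, Mrc1 between -0.073 and 0.089, Cd163 between -0.13 and 0.053 and Timd4 between -0.15 and 0.12. The number of the 10 genes called in CD VEH against WT VEH hearts (5) became 10 when the fit held the compared groups alone, 3 with the gene length offset, 0 at an adjusted p under 0.01 and 0 when a log2 change of at least 1 in size was asked for as well. Leaving out 1 mouse at a time gave 0 to 9 there, 5 to 10 in CD JZL184 against CD VEH, 0 to 10 in WT JZL184 against WT VEH, 9 to 10 in CD JZL184 against WT JZL184 and for the interaction, and 0 to 0 in CD JZL184 against WT VEH. Where a WT VEH mouse was left out, the other was assumed to vary like the other groups. At an adjusted p under 0.01 the count was 5 for JZL184 against vehicle in CD and 2 in WT. Under the added limit on the size of the change it was 0, 1 and, in CD JZL184 against WT JZL184, 2. With only the compared groups it was 1 in CD JZL184 against WT VEH. In that comparison edgeR called 5 genes of the whole table higher and 16 lower, against 50 and 55 in DESeq2 and 32 and 56 with only the compared groups. In WT JZL184 against WT VEH the compared groups alone gave 1099 higher and 553 lower genes over the whole table, against 1748 and 1584. The resident minus general level without the C1q genes was 0.11 for CD against WT under vehicle, -0.43 for JZL184 against vehicle in CD, -0.31 for CD against WT under JZL184 and -0.42 for the difference of the JZL184 effects. With Mrc1 and Cd163 among the resident genes the last 3 were -0.00048, 0.013 and 0.16. Leaving out 1 mouse at a time moved it between -0.18 and -0.0073, -0.26 and -0.080, -0.15 and -0.020, -0.24 and -0.11, -0.32 and -0.21, and -0.17 and 0.018 for, in this order, CD against WT under vehicle, JZL184 against vehicle in CD and in WT, CD against WT under JZL184, treated CD against vehicle WT, and the difference of the effects. The causes were not tested. With 2 or 3 mice in each group, an exact 2-sided permutation test of a single gene could not pass 0.05 in any comparison of 2 groups.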
